A study of Homo sapiens with 16 samples.

Results

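The TNF ligand and receptor superfamily was examined in RNA-seq libraries of cultured t(8;21)-positive AML cells. Its members were the genes whose symbol consists of TNFSF or TNFRSF, a number and at most 1 letter. This rule found 32 genes, 11 ligands (TNFSF) and 21 receptors (TNFRSF), among the 60357 genes of the deposited tables, of which 41212 had at least 1 read. Superfamily genes with other symbols, such as *TNF*, *LTB*, *FAS* and *CD40*, are not members under this rule and are given apart.

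Kasumi-1 and SKNO-1 are established human leukaemia lines with the t(8;21) translocation, which joins *RUNX1* to *RUNX1T1* (ETO), and SKNO-1 was grown with GM-CSF. Cells of both lines received lipid nanoparticles (LNPs) at 2 µg/ml for 24 h with a modified siRNA against the RUNX1/ETO fusion site (LNP/siRE-mod) or its mismatch control (LNP/siMM-mod), and RNA was taken on day 3. Each line has 3 libraries labelled siMM-mod and 3 labelled siRE-mod, 12 in all, and no library of untreated cells is analysed here. The labels do not say whether the replicates are separate cultures, so p-values measure the spread between these libraries only. In 4 further libraries of Kasumi-1 cells from mice, all 32 members were listed and none had a count, and *ACTB* and *GAPDH* were also at 0, so these libraries gave no value.

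Ligands of the TNF superfamily are mostly trimeric proteins of the cell surface that can be shed, and they act by clustering receptors. Receptors with a death domain can recruit caspases through adaptor proteins, and receptors without it bind TRAF proteins. Activation of NF-kB and kinase pathways is not confined to either kind. Decoy receptors bind ligand without passing on the full signal. In blood cells the family governs inflammation, survival of B cells, costimulation of lymphocytes and apoptosis of transformed cells.

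The libraries differed in ways that the labels do not follow. *RUNX1T1*, the ETO part of the fusion, was at 296, 92.7 and 161 normalised CPM in Kasumi-1 siMM-mod replicates 1, 2 and 3 and at 44.3, 159 and 37.2 in Kasumi-1 siRE-mod. The siRNA is directed at the fusion site, and counts of this gene do not measure the fusion transcript itself. In SKNO-1 siMM-mod it was at 329, 297 and 127, and in SKNO-1 siRE-mod at 123, 164 and 40.3. Normalised CPM are counts scaled to the library's total on genes and then by edgeR's TMM factors over the 12 libraries. The labelled groups therefore overlapped in *RUNX1T1* in both lines, and every group below is named by its label only.

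The 12 libraries were therefore also read by *CD34*, a surface marker of immature blood cells, and then by *RUNX1T1*, each split at its widest gap on the log scale. Of these libraries 6 had 117 to 420 normalised CPM of *CD34* and are called CD34-expressing, while the other 6 had 0.107 to 0.625 and are called CD34-silent. The CD34-expressing libraries comprise 3 RUNX1T1-high libraries (296 to 329), namely Kasumi-1 siMM-mod 1 and SKNO-1 siMM-mod 1 and 2, and 3 RUNX1T1-low libraries (92.7 to 127), namely Kasumi-1 siMM-mod 2, SKNO-1 siMM-mod 3 and SKNO-1 siRE-mod 1. The CD34-silent libraries comprise 3 RUNX1T1-high libraries (159 to 164), namely Kasumi-1 siMM-mod 3, Kasumi-1 siRE-mod 2 and SKNO-1 siRE-mod 2, and 3 RUNX1T1-low libraries (37.2 to 44.3), namely Kasumi-1 siRE-mod 1 and 3 and SKNO-1 siRE-mod 3. High and low hold within each CD34 class only. *IL5RA* was at 0 to 0.178 normalised CPM in the CD34-expressing and at 36.2 to 67.8 in the CD34-silent libraries. Each of the 4 sets mixes both line labels, and the lowest correlation of log2 CPM over genes within a set was 0.981 against 0.889 within a labelled group. The highest correlation across sets was 0.983, between Kasumi-1 siMM-mod 1 and 2, so on this measure the sets are not fully apart. These sets come from measured expression and cannot be assigned to a line or an siRNA, so members are described over them by range and overlap, with no mean, fold change or test.

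The libraries held 60559466 to 147990959 counts on genes. Of 6 markers of t(8;21) AML and immature myeloid cells, 5 were present in every library, with *MPO* at 1778 to 22611, *KIT* at 96.8 to 996, *RUNX1* at 141 to 410 and *CD33* at 38.0 to 76.2 normalised CPM beside *RUNX1T1*, and *CD34* was near 0 in 6. *MPO*, *KIT* and *RUNX1* were lower in every CD34-silent library, and lowest in the 3 CD34-silent RUNX1T1-low libraries. Of the markers of other cells, *CD3G*, *MS4A1*, *KRT5* and *COL1A2* had no read in any library, and the summed markers of T cells, erythroid and stromal cells stayed at or under 0.479 FPKM (CPM per kilobase of exons). The epithelial marker *EPCAM* was at 31.7 to 35.3 FPKM in the CD34-expressing and 0 to 0.00402 in the CD34-silent libraries. The summed B cell markers were at 1.39 to 2.94 FPKM in the CD34-expressing and 0.897 to 1.78 in the CD34-silent libraries, with *PAX5* higher in every CD34-expressing library. The part of these markers in the values of the superfamily was not tested.

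Most of the superfamily was close to silent. Of the 32 members, 18 had at least 600 reads over the 12 libraries, the minimum used for tests, and 14 had fewer. *TNFRSF13B* and *TNFRSF6B* had no read, and 4 members had 1 or 2 reads in total, which are *TNFSF18*, *TNFSF11* (RANKL), *TNFRSF19* and *TNFRSF11B* (osteoprotegerin). On the FPKM scale, which allows genes to be compared, 8 members had a median of at least 1 FPKM, 11 reached 1 FPKM in any library and 9 stayed under 0.1 FPKM in every library.

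*TNFRSF1A*, the death-domain receptor for TNF, had the highest level, with a median of 57.2 FPKM and a range of 44.8 to 63.2. *TNFSF13B*, which encodes the B cell survival factor BAFF, followed with a median of 16.3 (3.10 to 23.0). The ranges of these 2 genes did not overlap. Next came *TNFRSF21* (median 7.77 FPKM), *TNFRSF10A* (5.08), *TNFRSF10D* (3.24), *TNFSF10* (2.63), *TNFRSF10B* (2.44) and *TNFRSF1B* (1.87), whose ranges overlapped those of their neighbours in this order. *TNFRSF1A* made up 55.9% to 80.8% of the summed receptor FPKM of a library. These 8 members are also those with a mean of at least 5 normalised CPM, for which values of every library are given.

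**Figure D1:**
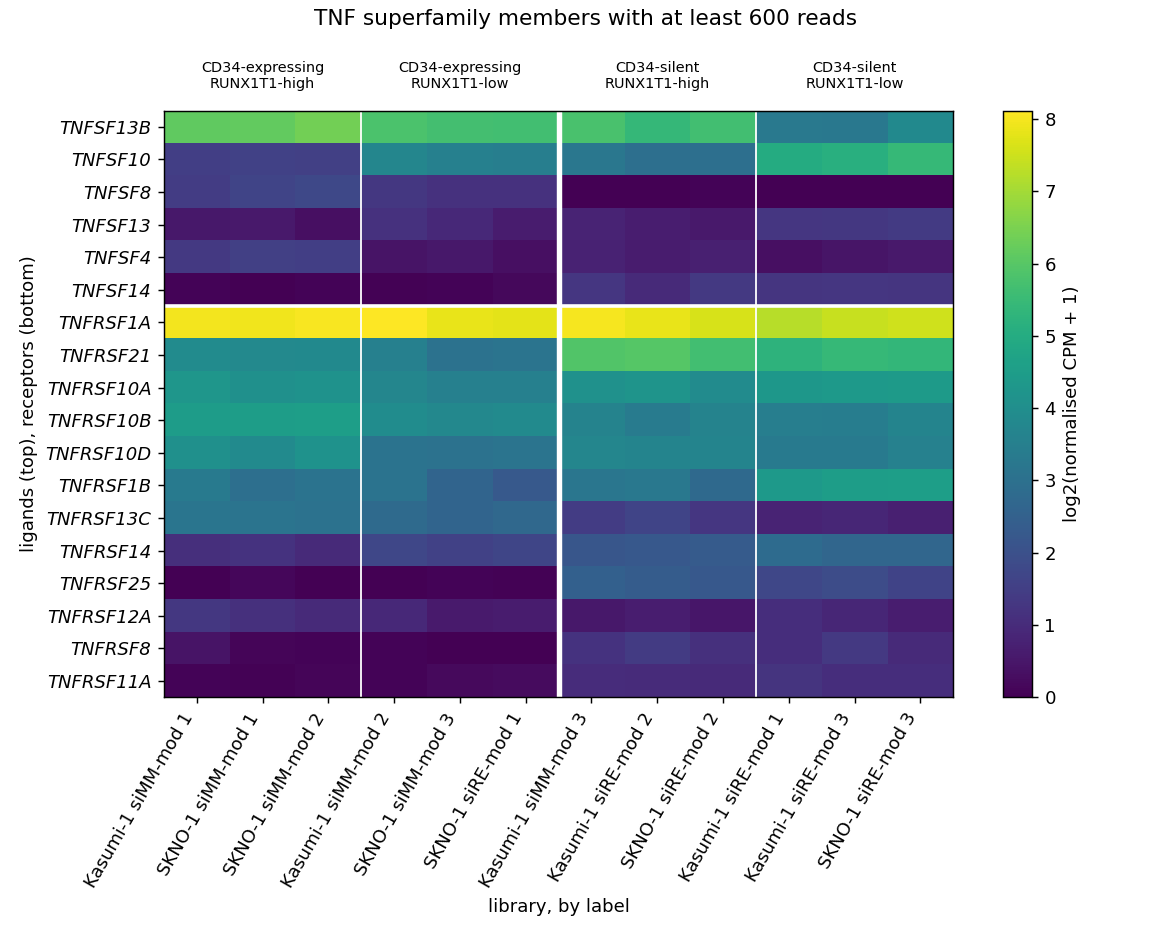
Levels of the 18 members with at least 600 reads, as log2(normalised CPM + 1), in the 12 libraries ordered by *CD34* and then *RUNX1T1*, with ligands above and receptors below the white line. *TNFRSF1A* is high throughout (151 to 277 normalised CPM), *TNFSF13B* is lowest and *TNFSF10* highest in the 3 CD34-silent RUNX1T1-low libraries, and *TNFRSF21* separates the CD34-silent from the CD34-expressing libraries.

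The reads of some members are shared with other genes. *TNFRSF6B* lies wholly within a readthrough gene with *RTEL1*, and *TNFSF13* and *TNFSF12* share 55.5% and 28.9% of their exonic bases with the readthrough gene *TNFSF12-TNFSF13*. *TNFRSF10C* shares 39.3% of its exonic bases with *AC107959.4* and *AC107959.5*, which lie on the same strand. Transcripts of the opposite strand cover 16.6% of the exonic bases of *TNFRSF10A* and 13.4% of those of *TNFRSF14*, and whether counting used strand is not given in the sources used here. The *TNFRSF10* genes are paralogs next to each other in the genome, and how reads matching several of them were counted is not stated. The values of these genes are uncertain to that extent.

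Upstream sequences are shown for the 3 members that the results turn on most and that are in the promoter table used, the ligands *TNFSF13B* and *TNFSF10* and the receptor *TNFRSF21*. They are the bases before the transcription start in RefSeq on GRCh38.p14, written 5′ to 3′ on the strand of the gene and without bases that GENCODE counts as exonic. Capitals mark the core motif of RUNX proteins, TGTGGT or TGCGGT on either strand. The *TNFSF13B* stretch is on chr13:108269379-108269628 (plus strand), inside the gene span of the deposited tables, which start this gene further upstream. The *TNFRSF21* stretch is on chr6:47309906-47310155 and the *TNFSF10* stretch on chr3:172523476-172523680 (both minus strand).
TNFSF13B: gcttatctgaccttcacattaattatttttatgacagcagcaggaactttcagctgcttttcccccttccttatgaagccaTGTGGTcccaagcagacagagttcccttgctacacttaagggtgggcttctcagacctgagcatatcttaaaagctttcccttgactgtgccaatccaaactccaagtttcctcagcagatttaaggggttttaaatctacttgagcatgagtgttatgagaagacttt
TNFRSF21: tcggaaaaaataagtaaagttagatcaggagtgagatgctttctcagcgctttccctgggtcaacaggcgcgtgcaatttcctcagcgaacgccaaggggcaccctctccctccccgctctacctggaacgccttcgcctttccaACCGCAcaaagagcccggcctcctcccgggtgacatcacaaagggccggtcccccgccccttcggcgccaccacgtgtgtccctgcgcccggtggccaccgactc
TNFSF10: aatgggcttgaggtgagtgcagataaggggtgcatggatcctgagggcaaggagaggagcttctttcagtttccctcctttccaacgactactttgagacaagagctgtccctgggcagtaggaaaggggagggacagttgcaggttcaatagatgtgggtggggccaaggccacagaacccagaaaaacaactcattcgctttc

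The *TNFSF13B* stretch holds 1 core, which begins at base −169 from the start, and the *TNFRSF21* stretch holds 1 at −105. The other promoter entry of *TNFSF13B*, on chr13:108269468-108269717 and not printed, holds 0 cores. The *TNFSF10* promoter has these letters nowhere in its 250 bases. Of the 32 members, 21 matched the table with 26 promoter entries, and 5 entries (19.2%), which belong to *TNFSF13B*, *TNFRSF21*, *TNFRSF11A*, *TNFRSF9* and *TNFSF4*, hold at least 1 core within 250 bases. Among all 35116 promoters of the table the share was 16.3%. A match is a description of the letters and not a measurement of binding.

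Among the ligands, *TNFSF13B* had the highest level in 9 libraries, and *TNFSF10* in the 3 CD34-silent RUNX1T1-low libraries. In Kasumi-1 it was at 68.6, 55.7 and 53.7 normalised CPM in siMM-mod (59.4 ± 8.09, SD, n = 3) and at 8.83, 41.2 and 8.54 in siRE-mod (19.5 ± 18.8). In SKNO-1 it was at 71.2, 82.4 and 50.2 in siMM-mod (67.9 ± 16.4) and at 49.2, 49.4 and 13.6 in siRE-mod (37.4 ± 20.6). Every siRE-mod library was below every siMM-mod library of its line, although in SKNO-1 the nearest values were 50.2 and 49.4. The 3 lowest values, 8.54 to 13.6, were those of the CD34-silent RUNX1T1-low libraries, and the remaining 9 libraries lay between 41.2 and 82.4. In bulk RNA, fewer cells of a kind and less RNA per cell cannot be told apart.

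*TNFSF10* encodes TRAIL, which triggers apoptosis through the receptors of *TNFRSF10A* and *TNFRSF10B*. In Kasumi-1 it was at 1.82, 12.1 and 8.32 normalised CPM in siMM-mod (7.40 ± 5.18, SD, n = 3) and at 30.9, 6.83 and 33.6 in siRE-mod (23.8 ± 14.7). In SKNO-1 it was at 1.95, 1.93 and 10.7 in siMM-mod (4.88 ± 5.08) and at 10.1, 6.79 and 42.1 in siRE-mod (19.7 ± 19.5). The labelled groups overlapped in both lines. By set the values did not overlap at all, with 1.82 to 1.95 in the CD34-expressing RUNX1T1-high, 6.79 to 8.32 in the CD34-silent RUNX1T1-high, 10.1 to 12.1 in the CD34-expressing RUNX1T1-low and 30.9 to 42.1 in the CD34-silent RUNX1T1-low libraries. Within both CD34 classes *TNFSF10* was thus higher, and *TNFSF13B* lower, in the libraries with less *RUNX1T1*.

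The makeup of the ligand transcripts differed accordingly. On the FPKM scale *TNFSF13B* made up 91.4% to 92.5% of the summed ligand level in the CD34-expressing RUNX1T1-high libraries, 78.8% to 80.7% in the CD34-expressing RUNX1T1-low and 83.0% to 85.2% in the CD34-silent RUNX1T1-high libraries. In the CD34-silent RUNX1T1-low libraries it made up 19.8% to 24.6%, and *TNFSF10* made up 67.7% to 69.4%. The summed ligand level itself ranged from 15.6 to 18.8 FPKM in that set and from 17.7 to 24.9 in the other 9 libraries.

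**Figure D2:**
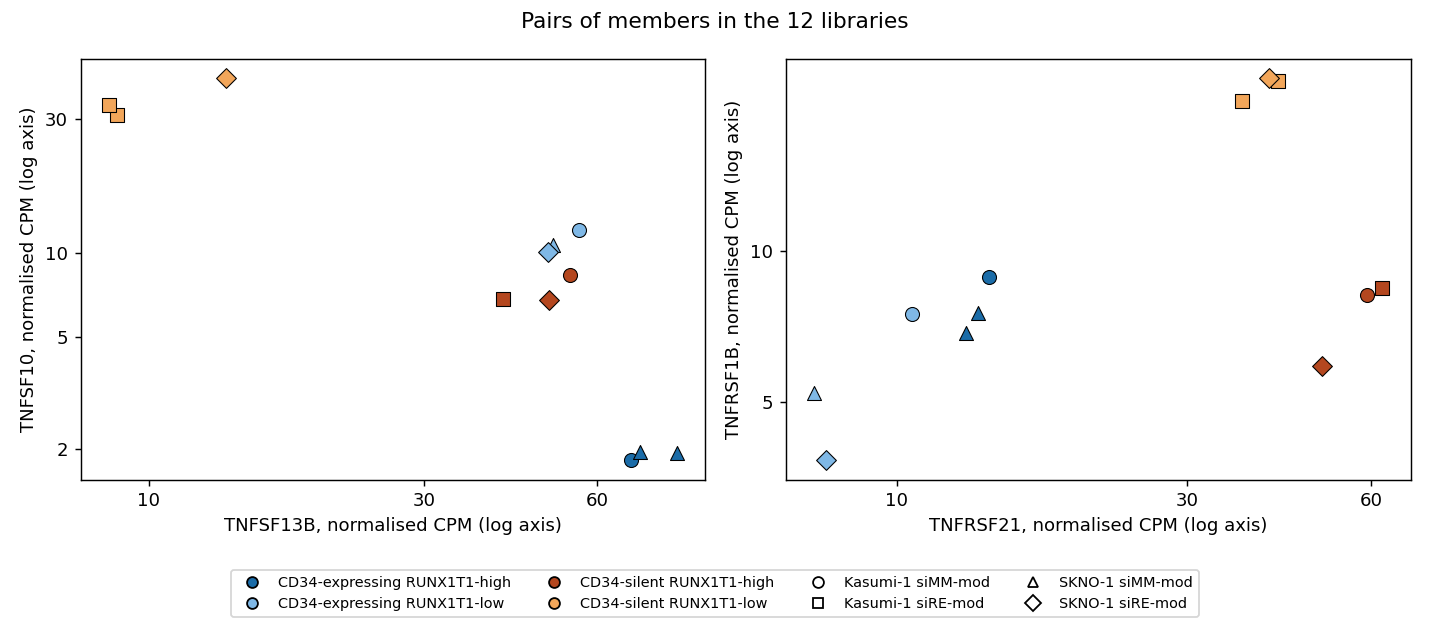
Normalised CPM on log axes of the ligands *TNFSF13B* and *TNFSF10* (left) and of the receptors *TNFRSF21* and *TNFRSF1B* (right), with 1 point for each of the 12 libraries, the colour giving the set and the shape the label. The CD34-silent RUNX1T1-low libraries stand apart on the left with 8.54 to 13.6 of *TNFSF13B* and 30.9 to 42.1 of *TNFSF10*, and on the right with 20.0 to 22.3 of *TNFRSF1B* against 3.81 to 8.87 in the others.

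The other ligands were at 2.39 normalised CPM or lower in every library, and those named here were chosen after their values were seen. *TNFSF8*, the CD30 ligand, was at 1.23 to 2.39 in the CD34-expressing libraries and at 0 to 0.0513 in the CD34-silent ones. *TNFSF14* (LIGHT), a ligand of the receptor encoded by *TNFRSF14*, had the opposite order, with 0 to 0.134 in the CD34-expressing and 0.943 to 1.52 in the CD34-silent libraries. *TNFSF4* (OX40 ligand) was at 1.52 to 1.91 in the CD34-expressing RUNX1T1-high libraries and at 0.256 to 0.703 in all others. *TNFSF13* (APRIL), whose reads are shared as described, ranged from 0.260 to 1.59, *TNFSF9* from 0.154 to 0.678, *TNFSF15* from 0 to 0.141 and *TNFSF12* from 0 to 0.117. By label, *TNFSF8* and *TNFSF14* overlapped in Kasumi-1. In SKNO-1 they did not, where the nearest libraries of the labelled groups were at 1.25 and 1.23 for *TNFSF8* and at 0.0577 and 0.134 for *TNFSF14*.

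Of the receptors for TNF itself, *TNFRSF1A* varied least. It was at 250, 277 and 258 normalised CPM in Kasumi-1 siMM-mod and at 151, 231 and 171 in Kasumi-1 siRE-mod. In SKNO-1 it was at 244, 262 and 231 in siMM-mod and at 222, 198 and 183 in siRE-mod. Every siRE-mod library was below every siMM-mod library of its line, and in both lines the nearest values lay close together, with 250 and 231 for Kasumi-1 and 231 and 222 for SKNO-1. The lowest 3 values, 151 to 183, were those of the CD34-silent RUNX1T1-low libraries.

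*TNFRSF1B*, the TNF receptor without a death domain, was far lower and more variable. It was at 8.87, 7.50 and 8.16 normalised CPM in Kasumi-1 siMM-mod and at 20.0, 8.43 and 22.0 in Kasumi-1 siRE-mod. In SKNO-1 it was at 6.87, 7.53 and 5.19 in siMM-mod and at 3.81, 5.89 and 22.3 in siRE-mod. The labelled groups overlapped in both lines, since the 3 high values belong to the CD34-silent RUNX1T1-low libraries and the other siRE-mod libraries lay among or below those of siMM-mod. On the FPKM scale *TNFRSF1B* was at 6.14 to 6.46 in these 3 libraries and at 1.04 to 2.44 in the other 9, while *TNFRSF1A* was at 44.8 to 47.4 and at 49.6 to 63.2.

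The TRAIL receptors were read together. *TNFRSF10A* (death receptor DR4) was at 18.4, 12.1 and 16.2 normalised CPM in Kasumi-1 siMM-mod and at 18.7, 17.4 and 19.9 in siRE-mod, and in SKNO-1 at 15.8, 16.8 and 10.5 in siMM-mod and at 10.7, 14.1 and 20.5 in siRE-mod. *TNFRSF10B* (death receptor DR5) was at 21.6, 14.3 and 11.3 in Kasumi-1 siMM-mod and at 10.1, 9.43 and 9.80 in siRE-mod, and in SKNO-1 at 22.0, 22.5 and 12.8 in siMM-mod and at 13.7, 11.3 and 11.8 in siRE-mod. *TNFRSF10D*, a decoy with a truncated death domain, was at 16.0, 7.62 and 12.3 in Kasumi-1 siMM-mod and at 9.03, 11.7 and 9.27 in siRE-mod, and in SKNO-1 at 13.9, 16.8 and 7.30 in siMM-mod and at 7.78, 11.7 and 10.9 in siRE-mod. By label, *TNFRSF10B* of Kasumi-1 alone did not overlap, with siRE-mod lower, and it did overlap without TMM factors. All 3 receptors were lower in the CD34-expressing RUNX1T1-low than in the CD34-expressing RUNX1T1-high libraries, without overlap. In the CD34-silent class, *TNFRSF10A* was higher and *TNFRSF10D* lower in the RUNX1T1-low libraries, and *TNFRSF10B* overlapped. The remaining decoy *TNFRSF10C* was at 0.0108 to 0.293.

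Per kilobase, the TRAIL receptors with a death domain and their ligand differed in their order between sets. In the CD34-expressing RUNX1T1-high libraries *TNFSF10* was at 0.480 to 0.533 FPKM, against 4.85 to 5.90 for *TNFRSF10A* and 3.83 to 4.13 for *TNFRSF10B*. In the CD34-silent RUNX1T1-low libraries *TNFSF10* was at 10.7 to 12.7, against 7.23 to 7.55 and 2.17 to 2.45. The ligand thus lay below both receptors in the first set and above both in the second.

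*TNFRSF21* (death receptor DR6) was higher in every CD34-silent than in every CD34-expressing library. In Kasumi-1 it was at 14.2, 10.6 and 59.1 normalised CPM in siMM-mod (28.0 ± 27.0, SD, n = 3) and at 36.9, 62.6 and 42.2 in siRE-mod (47.3 ± 13.6). In SKNO-1 it was at 13.0, 13.6 and 7.33 in siMM-mod (11.3 ± 3.46) and at 7.66, 49.8 and 40.8 in siRE-mod (32.7 ± 22.2). The labelled groups overlapped in both lines, each through 1 library, Kasumi-1 siMM-mod 3 and SKNO-1 siRE-mod 1. The CD34-expressing libraries were at 7.33 to 14.2 and the CD34-silent ones at 36.9 to 62.6, and within each class the RUNX1T1-low libraries were the lower.

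**Figure D3:**
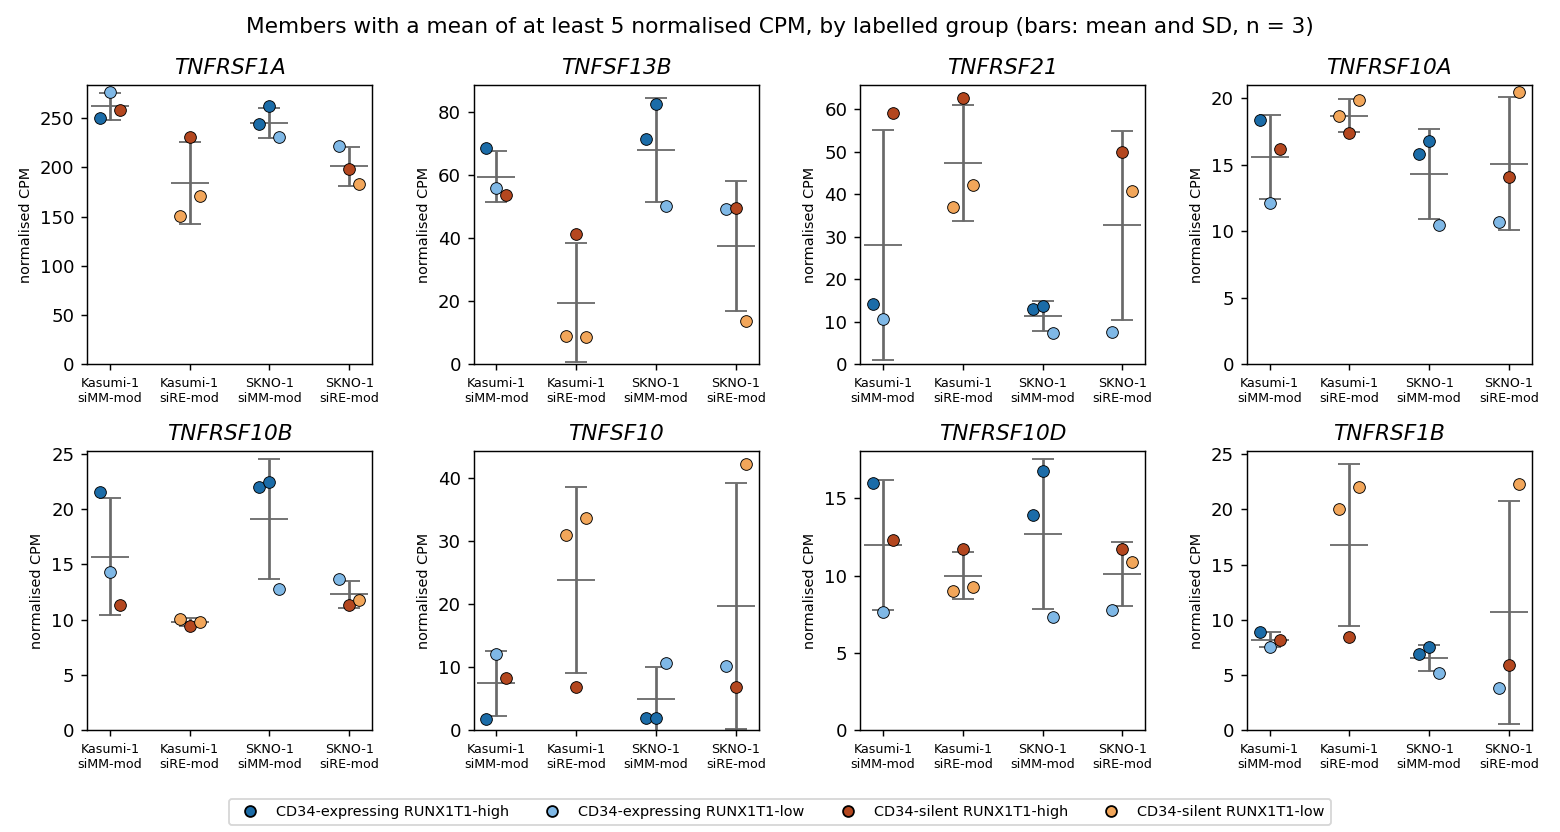
Normalised CPM of the 8 members with a mean of at least 5, by labelled group, with a point for each library coloured by set and grey bars for the mean and SD of 3 libraries. In *TNFRSF21* points of a colour lie together across groups, and Kasumi-1 siMM-mod 3 (59.1) and SKNO-1 siRE-mod 1 (7.66) sit with the libraries of their colour. In *TNFRSF1A* and *TNFRSF1B* only the CD34-silent RUNX1T1-low libraries stand apart, and the other colours overlap.

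The receptors under 5 normalised CPM in the mean are given by range, and those described were chosen after their values were seen. *TNFRSF13C*, the BAFF receptor, was at 5.16 to 7.96 in the CD34-expressing libraries and at 0.657 to 2.18 in the CD34-silent ones, with the lowest values, 0.657 to 0.824, in the RUNX1T1-low libraries where *TNFSF13B* was lowest as well. The other receptors of BAFF and APRIL were nearly absent, as *TNFRSF17* (BCMA) reached 0.125 and *TNFRSF13B* (TACI) had no read. *TNFRSF14* (HVEM), a regulator of lymphocyte activation, was at 0.966 to 2.28 in the CD34-expressing and 3.49 to 6.19 in the CD34-silent libraries, and within each class the RUNX1T1-low libraries were the higher. *TNFRSF25* (death receptor DR3) was at 0 to 0.114 in the CD34-expressing libraries, at 3.73 to 4.62 in the CD34-silent RUNX1T1-high and at 2.12 to 2.71 in the CD34-silent RUNX1T1-low libraries. *TNFRSF8* (CD30) and *TNFRSF11A* (RANK, the receptor of osteoclast differentiation) were also higher in every CD34-silent library, at 0.976 to 1.66 against 0.0149 to 0.339 and at 0.975 to 1.35 against 0.0427 to 0.178.

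Ligand and receptor of a pair did not share an order in every case. BAFF and its receptor were both highest in the CD34-expressing RUNX1T1-high and lowest in the CD34-silent RUNX1T1-low libraries. LIGHT and HVEM were both higher in the CD34-silent libraries, whereas the CD30 ligand was higher and CD30 lower in the CD34-expressing ones. *TNFRSF12A*, the receptor of TWEAK, ranged from 0.400 to 1.49, and the lymphocyte receptors *TNFRSF4* (OX40), *TNFRSF9* and *TNFRSF18* reached 0.488, 0.221 and 0.143.

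Counted over the 18 members with at least 600 reads, 3 were higher in every CD34-expressing than in every CD34-silent library (*TNFRSF10B*, *TNFRSF13C* and *TNFSF8*) and 6 were lower (*TNFRSF8*, *TNFRSF11A*, *TNFRSF14*, *TNFRSF21*, *TNFRSF25* and *TNFSF14*). Of all 15863 genes with as many reads, 15.6% were higher and 17.5% lower in this way. *TNFRSF8*, *TNFRSF11A*, *TNFRSF25* and *TNFSF14* had few reads outside the CD34-silent libraries, and *TNFSF8* few outside the CD34-expressing ones. They met the 600-read minimum through the class in which they were high. Their separations are therefore a description only, here and in the counts below. Within the CD34-expressing class, 3 members were higher without overlap in the RUNX1T1-low libraries and 9 were lower, against 18.1% and 20.1% of all genes. Within the CD34-silent class, 6 were higher and 8 lower, against 21.7% and 21.6% of all genes. Higher in the RUNX1T1-low libraries of both classes were 3 members, *TNFRSF14*, *TNFSF10* and *TNFSF13*, and lower in both were 6, *TNFRSF10D*, *TNFRSF13C*, *TNFRSF21*, *TNFSF4*, *TNFSF8* and *TNFSF13B*. Over all genes 5.72% were higher and 6.88% lower in both.

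Other scalings moved some of these counts. *TNFRSF10B* overlapped between the CD34 classes without TMM factors and under median-of-ratios size factors. *TNFRSF1A*, *TNFRSF10D* and *TNFRSF21* overlapped between the CD34-silent sets under median-of-ratios size factors, as did *TNFRSF10A*, and *TNFSF8* overlapped there without TMM factors. *TNFSF13* overlapped between the CD34-expressing sets under median-of-ratios size factors, so that 2 members, *TNFRSF14* and *TNFSF10*, were then higher in both classes and 4 lower, against 3.75% and 5.31% of all genes. The separations of *TNFSF13B*, *TNFSF10*, *TNFRSF1B*, *TNFRSF13C*, *TNFRSF14*, *TNFRSF25* and *TNFRSF11A* between the CD34-silent sets, and those of the 6 members higher in the CD34-silent class, were present under all 3 scalings.

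The labelled comparison sets the libraries labelled siRE-mod against those labelled siMM-mod. Fitted with edgeR's quasi-likelihood test over all genes, no gene passed an adjusted p of 0.05 in either line, that is 0% of 13608 genes in Kasumi-1 and 0% of 13628 in SKNO-1. *RUNX1T1* did not pass either, with a log2 fold change of −1.19 (SE 0.71, adjusted p = 0.392) in Kasumi-1. In SKNO-1 it had −1.19 (SE 0.57, adjusted p = 0.491). Since the labelled groups overlap in *RUNX1T1*, 0 calls cannot show whether the siRNA altered a member. At an unadjusted p under 0.05 there were 2435 genes in Kasumi-1 and 1455 in SKNO-1. Of the members, 12 were tested in Kasumi-1 and 11 in SKNO-1, and 0 passed in either, with 5 and 2 at an unadjusted p under 0.05. DESeq2 called 1156 and 372 genes and 0 members, with 7 and 5 members at an unadjusted p under 0.05 and 1 member of Kasumi-1 left without an adjusted p. All genes under this unadjusted p were not counted for DESeq2, so the 7 and 5 members cannot be set against them. In Kasumi-1 the members tested had a median log2 fold change of 0.52, beside 0.02 for all genes tested, and in SKNO-1 of 0.07, beside 0.03. Directions were mixed, with 7 of the 12 members above 0 in Kasumi-1 and 6 of the 11 in SKNO-1.

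The estimates of the 8 members were wide. In Kasumi-1, *TNFSF13B* had a log2 fold change of −1.60 (SE 0.67, adjusted p = 0.289), *TNFSF10* of 1.69 (SE 0.85, adjusted p = 0.341), *TNFRSF1B* of 1.04 (SE 0.37, adjusted p = 0.255) and *TNFRSF1A* of −0.50 (SE 0.18, adjusted p = 0.255). In SKNO-1, the same genes had −0.85 (SE 0.50, adjusted p = 0.542), 1.98 (SE 0.97, adjusted p = 0.496), 0.69 (SE 0.65, adjusted p = 0.713) and −0.29 (SE 0.16, adjusted p = 0.531). *TNFRSF21* had 0.77 (SE 0.68, adjusted p = 0.544) in Kasumi-1 and 1.53 (SE 0.65, adjusted p = 0.470) in SKNO-1, and *TNFRSF10B* had −0.68 (SE 0.28, adjusted p = 0.276) and −0.64 (SE 0.28, adjusted p = 0.472). *TNFRSF10A* had 0.27 (SE 0.20, adjusted p = 0.473) and 0.07 (SE 0.32, adjusted p = 0.956), and *TNFRSF10D* −0.26 (SE 0.31, adjusted p = 0.651) and −0.32 (SE 0.36, adjusted p = 0.768). The estimates had the same sign in both lines for all 8, and none was past the threshold. Of the 6 CD34-silent libraries 5 are labelled siRE-mod, and of the 6 CD34-expressing ones 5 are labelled siMM-mod, with both lines in each class. The lines thus share this makeup, and equal signs are not independent results of 2 lines.

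**Figure D4:**
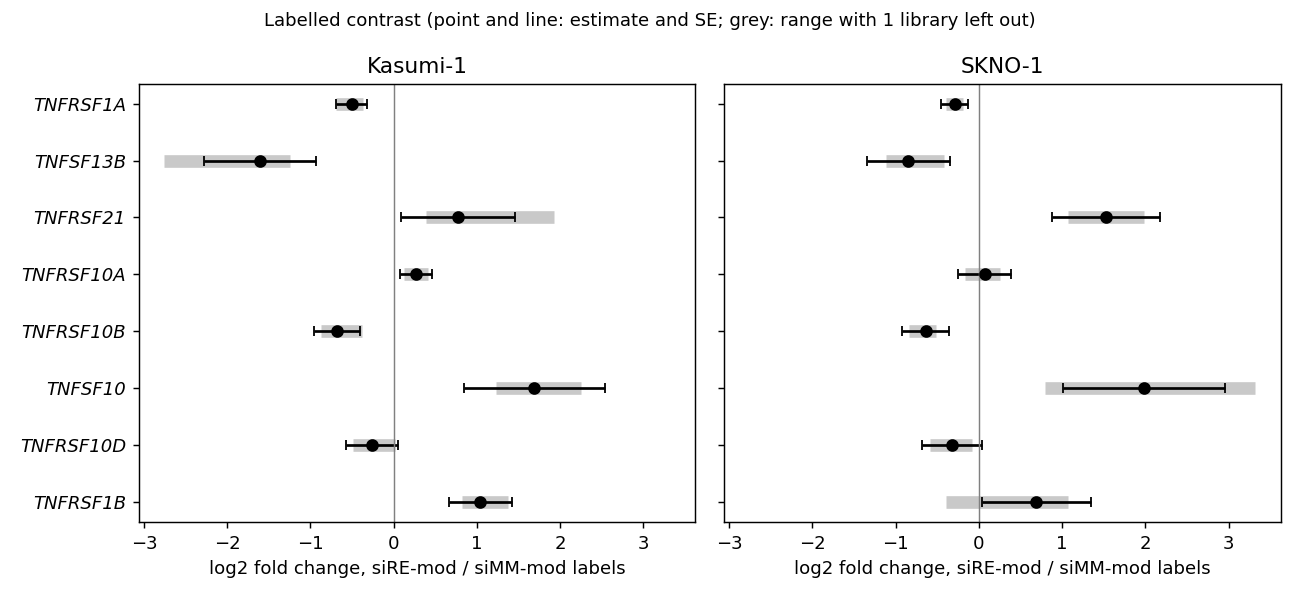
Log2 fold change of siRE-mod against siMM-mod labels for the 8 members in each line, with points and black lines for the estimate and its SE from edgeR and grey bars for the range when any 1 of the 6 libraries is left out. In Kasumi-1 *TNFSF13B* ranges from −2.76 to −1.24 and *TNFRSF21* from 0.39 to 1.93, and in SKNO-1 *TNFRSF1B* ranges from −0.40 to 1.07.

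These results rested on single libraries. Without Kasumi-1 siMM-mod replicate 3, the CD34-silent library of its group, edgeR called 4250 genes (32.2% of 13200) and 5 of 11 members tested, *TNFRSF14*, *TNFRSF21* and *TNFRSF25* as higher in siRE-mod and *TNFRSF10B* and *TNFRSF13C* as lower, against 16.5% and 15.7% of all genes. Without SKNO-1 siRE-mod replicate 1, the CD34-expressing library of its group, it called 2535 genes (19.3% of 13119) and 4 of 11 members, *TNFRSF14*, *TNFRSF21* and *TNFRSF25* as higher and *TNFRSF13C* as lower, against 10.8% and 8.55% of all genes. The log2 fold change of *TNFRSF21* was then 1.93 (SE 0.29, adjusted p = 0.00519) for Kasumi-1 and 1.98 (SE 0.30, adjusted p = 0.00768) for SKNO-1, and its adjusted p over the 12 alternatives ranged from 0.00519 to 0.828 and from 0.00768 to 0.990. In both of these fits all siMM-mod libraries are CD34-expressing and all siRE-mod libraries CD34-silent, so the siRNA label and the CD34 class cannot be told apart in them. Leaving out any other library of these comparisons gave 0 members.

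Without a test, 1 member (*TNFRSF14*) was higher and 3 (*TNFRSF1A*, *TNFRSF10B* and *TNFSF13B*) were lower in every siRE-mod than in every siMM-mod library of Kasumi-1, against 10.5% and 11.1% of all genes. In SKNO-1, 3 (*TNFRSF11A*, *TNFRSF14* and *TNFSF14*) were higher and 3 (*TNFRSF1A*, *TNFSF8* and *TNFSF13B*) lower, against 5.93% and 6.01%. In both lines *TNFRSF14* was higher and *TNFRSF1A* and *TNFSF13B* were lower, beside 1.56% and 2.54% of all genes higher and lower in both. As with the signs above, the lines are not independent here. These separations depend on the scaling, since *TNFRSF14* overlapped in Kasumi-1 and *TNFSF13B* in SKNO-1 under median-of-ratios size factors, *TNFRSF1A* overlapped in SKNO-1 under these as well and in both lines without TMM factors, and *TNFRSF10B* overlapped in Kasumi-1 without them.

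The difference of the siRNA comparison between the lines was tested as an interaction over the 12 libraries. It passed for 0% of 15863 genes in edgeR, with 106 at an unadjusted p under 0.05, and for 0 of 18 members, with 0 at an unadjusted p under 0.05. DESeq2 called 127 genes and 0 members, with 0 members at an unadjusted p under 0.05. Between the line labels, SKNO-1 against Kasumi-1, edgeR called 0% of 15863 genes and 0 of 18 members, with 2050 genes and 1 member at an unadjusted p under 0.05, and DESeq2 called 272 genes and 0 members and left 7 of the 18 without an adjusted p. Without SKNO-1 siRE-mod replicate 3 edgeR called 70 genes (0.451%) between the line labels, none a member.

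Of the superfamily ligands with other symbols, *TNF* and *LTB* were highest in the CD34-silent RUNX1T1-low libraries. *TNF* was at 7.59, 8.22 and 9.65 normalised CPM in Kasumi-1 siRE-mod 1 and 3 and SKNO-1 siRE-mod 3 and at 0.698 to 1.61 in the other 9 libraries. *LTB*, a subunit of the lymphotoxin that acts in lymphoid tissue formation, was at 8.35, 11.1 and 9.98 in the same 3 libraries and at 0.0271 to 0.551 in the others. *CD70*, the ligand of *CD27*, was at 0.677 to 2.65 in the CD34-silent and 0 to 0.0127 in the CD34-expressing libraries, and *EDA*, a ligand of skin appendage development, was at 1.46 to 2.53 in the CD34-expressing and 0 to 0.0308 in the CD34-silent ones. Of the 7 such ligands, 4 had at least 600 reads, and of these 2 (*TNF* and *LTB*) were higher and 0 lower without overlap in the RUNX1T1-low libraries of the CD34-silent class, against 21.7% and 21.6% of all genes. *LTB* had few reads elsewhere and met this minimum through the libraries in which it was high, so its separation is a description only. None passed the labelled comparison in edgeR, where *TNF* had a log2 fold change of 2.14 (SE 0.73, adjusted p = 0.253) in Kasumi-1 and 1.76 (SE 1.03, adjusted p = 0.541) in SKNO-1. DESeq2 called *TNF* and *LTB* as higher in the Kasumi-1 libraries labelled siRE-mod and left both without an adjusted p in SKNO-1. Over all genes it called 221 as higher in Kasumi-1.

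Of 8 receptors with other symbols, 7 were in the tables, 3 had at least 600 reads and *LTBR* is not analysed here. *RELT*, a receptor of lymphoid cells, was at 30.2 to 39.4 normalised CPM in the CD34-silent RUNX1T1-low, 19.7 to 22.8 in the CD34-silent RUNX1T1-high and 12.5 to 18.1 in the CD34-expressing libraries. *FAS*, the death receptor of FAS ligand, was at 7.80 to 11.1, 4.23 to 5.44 and 0.244 to 0.476 in these libraries. *CD40*, the costimulatory receptor of antigen-presenting cells, had the reverse order within the CD34-silent class, at 0.0730 to 0.273 against 0.551 to 0.842, and *EDAR* was at 0.0649 to 0.422. The ligand of *FAS*, *FASLG*, reached 0.0153. By label, edgeR called 0 of the 2 receptors tested in each line, with 1 in Kasumi-1 and 2 in SKNO-1 at an unadjusted p under 0.05, and DESeq2 called *RELT* in Kasumi-1 and *FAS* in SKNO-1, both as higher in siRE-mod. Over all genes, 2435 of 13608 and 1455 of 13628 were under this unadjusted p in edgeR, and DESeq2 called 221 and 354 as higher.

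All 29 genes of a list of downstream signalling had at least 600 reads. In the CD34-silent class 15 were higher and 3 lower without overlap in the RUNX1T1-low libraries, against the 21.7% and 21.6% of all genes, and in the CD34-expressing class 12 were higher and 4 lower, against 18.1% and 20.1%. Higher in both classes were 8, *BIRC2*, *BIRC3*, *CFLAR*, *CYLD*, *MAP3K14*, *NFKBIA*, *TNFAIP3* and *TRAF1*, among which *NFKBIA* and *TNFAIP3* are inhibitors of NF-kB and *BIRC3* and *CFLAR* restrain caspases. Lower in both were 2, *CASP8* and *TRAF5*. Over all genes 5.72% were higher and 6.88% lower in both. Under all 3 scalings, 5 of the 8 (*BIRC3*, *CFLAR*, *CYLD*, *TNFAIP3* and *TRAF1*) and *TRAF5* remained. The CD34-expressing count of 12 higher fell to 6 without TMM factors and to 5 under median-of-ratios size factors, where all genes were at 16.8% and 11.9%. Between the CD34 classes 3 were higher and 7 lower in the CD34-expressing libraries, against 15.6% and 17.5% of all genes. By label, edgeR called 0 of 28 in Kasumi-1 (6 at an unadjusted p under 0.05) and 0 of 27 in SKNO-1 (4). Over all genes, 2435 of 13608 and 1455 of 13628 were under this unadjusted p. DESeq2 called 2 in each line, *TNFAIP3* and *TRAF3* in Kasumi-1 and *TNFAIP3* and *BIRC3* in SKNO-1, all as higher in siRE-mod. Over all genes it called 221 and 354 as higher.

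The 4 signalling genes with the highest mean normalised CPM are described first. *MAP3K7*, the kinase TAK1, ranged from 52.5 to 83.8 normalised CPM and *IKBKB*, a kinase of the NF-kB inhibitor, from 50.8 to 71.4. *TAB2*, a partner of TAK1, was at 44.8 to 49.7 in the CD34-expressing and 79.9 to 103 in the CD34-silent libraries, and *CHUK*, another kinase of the NF-kB inhibitor, was at 67.3 to 87.0 in the CD34-expressing, 27.8 to 35.0 in the CD34-silent RUNX1T1-high and 52.9 to 65.6 in the CD34-silent RUNX1T1-low libraries. The CD34 classes overlapped in *CHUK* under both other scalings. Larger ranges were seen for *BIRC3*, *NFKBIA* and *TNFAIP3*, chosen after their values were seen. *BIRC3* was at 0.115 to 0.550 in the CD34-expressing, 15.6 to 19.2 in the CD34-silent RUNX1T1-high and 70.2 to 104 in the CD34-silent RUNX1T1-low libraries. *TNFAIP3* was at 9.07 to 23.5, 35.8 to 39.5 and 82.9 to 106, and *NFKBIA* at 23.1 to 38.2, 36.6 to 42.5 and 86.6 to 110, in the same order.

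**Figure D5:**
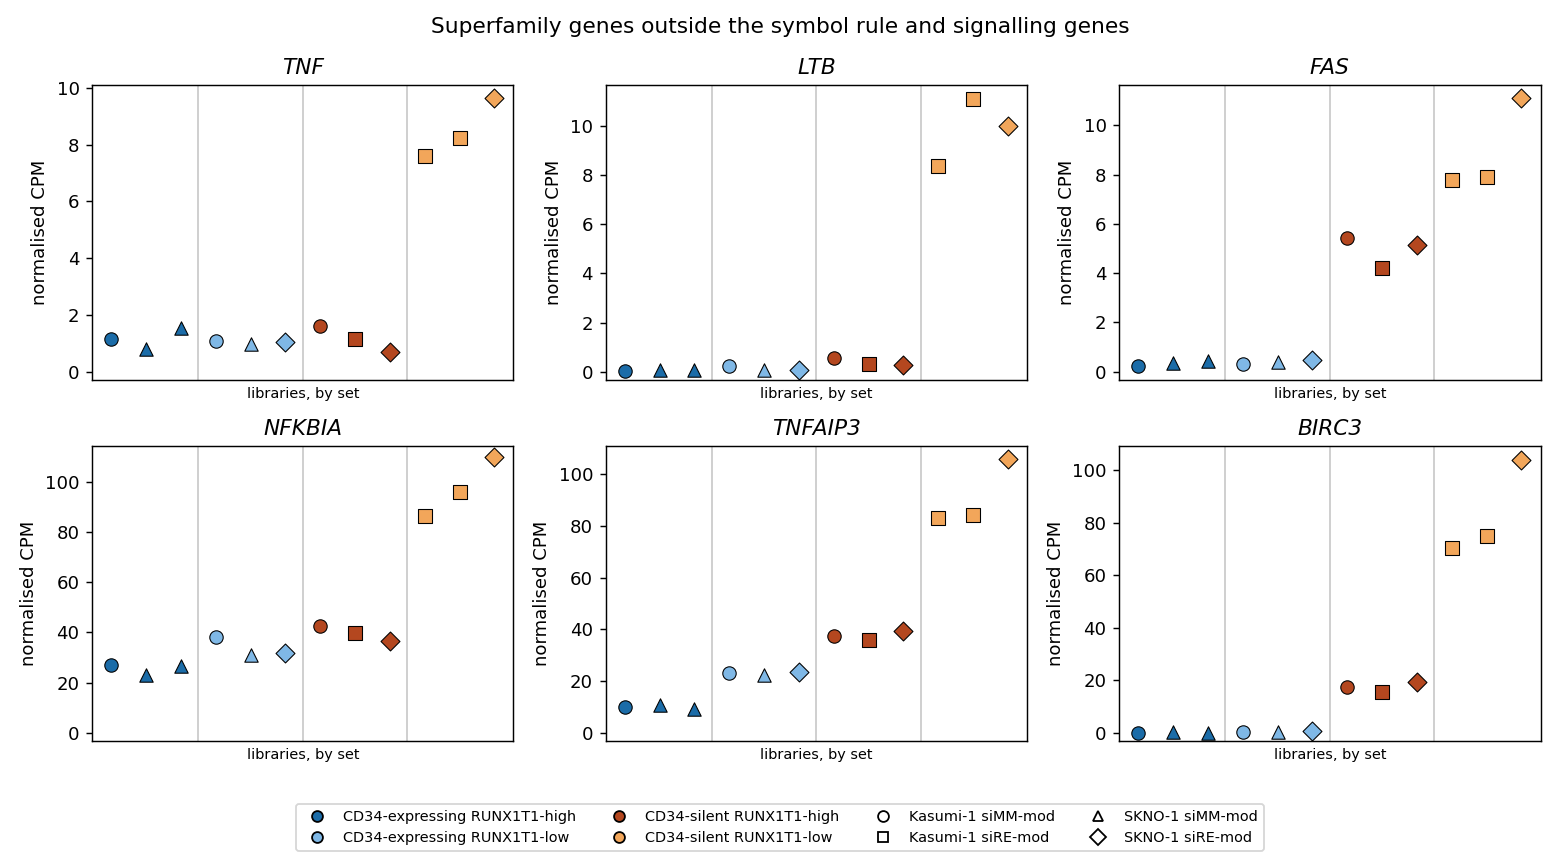
Normalised CPM of *TNF*, *LTB*, *FAS*, *NFKBIA*, *TNFAIP3* and *BIRC3* in the 12 libraries, ordered by *CD34* and then *RUNX1T1*, with the colour giving the set and the shape the label. All 6 are highest in the 3 CD34-silent RUNX1T1-low libraries, with *TNF* at 7.59 to 9.65 there and at most 1.61 elsewhere, and *BIRC3* also separates the CD34-silent from the CD34-expressing libraries.

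Enzymes that release or process ligands were present throughout. The sheddase *ADAM17*, which cleaves TNF, was at 85.3 to 99.2 normalised CPM in the CD34-silent RUNX1T1-low libraries and at 49.9 to 69.1 in the others. *ADAM10* was at 169 to 314 and was lower in the RUNX1T1-low libraries of both classes without overlap, except under median-of-ratios size factors in the CD34-silent class, and *FURIN*, a protease that processes BAFF and APRIL, ranged from 47.0 to 106. By label, edgeR called 0 of these 3 genes in either line, with 0 at an unadjusted p under 0.05, and DESeq2 also called 0.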

How the data were processed

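RNA-seq was performed on 12 in vitro libraries of Kasumi-1 and SKNO-1 and on 4 libraries of Kasumi-1 from mice, and samples were grouped by line and siRNA from their labels. The authors trimmed reads with trim galore 0.6.5, aligned them to GRCh38 with STAR 2.7.10a and deposited raw counts per gene. The methods name subread 1.6.5, and the headers of the tables name Rsubread 1.32.4 under R 3.5.1. The strand setting is not given in the sources used here. The deposited CPM are the counts scaled to a fixed total of counts on genes, and the deposited FPKM are these CPM per kilobase of exons. CPM were used as counts scaled again by TMM factors. FPKM, which carry no TMM factors, were used to compare levels between genes, for sums over genes and for some ranges by set. In the in vivo tables, 0.0200% to 0.0335% of reads lie on genes.

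The members, gene lists and tests were chosen with earlier results of these data known. Members with a mean of at least 5 normalised CPM are given by library, other members by range, and of each list up to 4 genes with the highest mean. Genes with at least 600 reads over the libraries of a fit were tested on the counts with edgeR 4.0.16 in R 4.3.3 (TMM, robust quasi-likelihood test), fitted on all genes with Benjamini-Hochberg adjustment and a threshold of 0.05. Lines were fitted apart, and the interaction and the line labels over all 12 libraries. With 3 libraries a group, single-gene permutation tests were not used. Procedures were tested on simulated counts with a much smaller spread than these libraries had (edgeR common dispersion 0.197 to 0.255). The power to detect changes in these libraries was therefore not measured. No libraries were duplicates, since counts of every pair differed beyond sampling noise. Replicate numbers are shared between groups, and the correlation of same-numbered deviations from the group mean was 0.03 or lower in all 6 pairs. As labelled groups mix CD34 classes, these correlations cannot show whether the numbers pair libraries. The numbers were not used as pairs in the main fits. Alternatives were DESeq2 1.42.0, its size factors in edgeR, no filter, filterByExpr, an added minimum of 1 for the size of the log2 fold change, a replicate block, 1 fit over all 12 libraries and each library left out. Overlaps between libraries, for members and lists, were counted again with deposited CPM and with median-of-ratios size factors, chosen after seeing the data. Python 3.11.15 with numpy 2.4.6, pandas 2.3.3 and matplotlib 3.10.9 was used for tables and figures.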

Additional observations from a re-analysis of the deposited data

How the results depend on the processing

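Results with 0 calls in edgeR kept 0 under every alternative that uses all libraries of the comparison except DESeq2, which called 1156 genes in Kasumi-1 (221 higher, 935 lower), 372 in SKNO-1 (354 higher, 18 lower), 127 for the interaction and 272 between line labels, and 0 members each time. Leaving out 1 library gave 0 to 4250 genes and 0 to 5 members in Kasumi-1, 0 to 2535 genes and 0 to 4 members in SKNO-1, 0 to 70 genes between line labels, and 0 for the interaction. With the replicate block, edgeR called 0 genes and 0 members in all 4 comparisons, and it changed no call of the 8 members. It moved the log2 fold change of *TNFRSF1B* in SKNO-1 from 0.69 to 0.25 and that of *TNFRSF21* in Kasumi-1 from 0.77 to 1.17. Of 192 values of the 8 members under an alternative, 188 kept their direction. Reversed were *TNFRSF10D* in Kasumi-1, which ranged from −0.49 to 0.019 on the log2 scale and reversed without siMM-mod replicate 1, and in SKNO-1 *TNFRSF10A* (−0.17 to 0.25) and *TNFRSF1B* (−0.40 to 1.07) without siRE-mod replicate 3. *TNFRSF10A* in SKNO-1 also reversed without siMM-mod replicate 3 (−0.10). Limits are the depth of low members, where a few reads decide a rank, and groups of 3 whose libraries differ in *CD34*. TMM factors ranged from −0.23 to 0.25 on the log2 scale. Without them, 5 members were higher and 1 lower without overlap in siRE-mod of Kasumi-1, where 31.0% and 3.60% of all genes were. With median-of-ratios size factors 0 and 3 were in Kasumi-1, 3 and 1 in SKNO-1, and 5 rather than 8 were lower in the CD34-silent RUNX1T1-low libraries.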
